A study of Mus musculus with 24 samples.

Results

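The comparison set hippocampal RNA of APP/PS1 transgenic mice against that of non-transgenic mice at the end of a water gavage, with the question of what the transgenes change in the hippocampus without any drug. Its arrays were chosen by title: 3 titled APP-PS1_CTR and 4 titled WT_CTR, which is 7 of the 24 arrays in the series. All 7 samples came from male mice whose strain the labels name as B6.Cg-Tg(APPswe,PSEN1dE9)85Dbo/J. The WT_CTR genotype is given as negative and the APP-PS1_CTR genotype as positive for both the APP and the PSEN transgene. Both groups received water by gavage, with dosing in the study running from 2 to 7 months of age. The labels give an age of 8 months, whereas the design text of the series puts tissue collection at 7 months. The other 17 arrays belong to urolithin A and washout groups. In the main fit they shared its estimate of the spread. They also counted in choosing which probes were kept and which probe stood for a gene. In fits with array row as a block they moved the changes themselves. The washout groups are compared only where they are named.

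In this transgenic line, a mouse-human amyloid precursor protein with the Swedish mutations and a human presenilin lacking an exon are driven by the mouse prion protein promoter, which is active in neurons and other cells of the brain, and amyloid plaques form with age. Microglia, the resident macrophages of the brain, gather at plaques and take on a state that depends on the receptor TREM2 and its signalling adaptor TYROBP. In that state they express cystatin F, the integrin CD11c, chemokines and lysosomal proteins. Astrocytes near plaques become reactive and make more of the filament protein GFAP.

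Cy3-labelled RNA was hybridised to 1-colour Agilent arrays. Levels are given as the log2 of the background-subtracted signal minus the 75th percentile of the same array, so that 0 is the level of a fairly bright spot. A change is the mean of APP-PS1_CTR minus the mean of WT_CTR on that scale, and its standard error (SE) comes from limma. A feature was called where its adjusted p (Benjamini-Hochberg, over the 35205 features tested) was under 0.05. Of the features, 18540 were genes with a symbol and 16665 were probes without one. The labels number the samples of a group without saying that each was a separate animal, so the p-values measure the spread between these samples. Between 68.5% and 74.4% of the spots of the 7 arrays were well above background, and the number of arrays limits the precision. All 7 arrays lay on slide 1, with WT_CTR in array row 1 and APP-PS1_CTR in array row 2, so within these arrays genotype and array row cannot be told apart. Where array row was added as a block, its effect was estimated from APP-PS1_UA, WT_WASHOUT and APP-PS1_UA-WASHOUT. In each of these groups only replicate 1 lay in the other array row from the rest. In APP-PS1_UA that replicate was also the only one on slide 1, so the block rests on few arrays.

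In all, 60 features were called, 0.17% of those tested. Of these, 59 were higher in APP-PS1_CTR (0.168% of the features tested) and 1 was lower (0.00284%). A symbol was known for 51 of the 60, and 50 of those 51 were higher. The median change of the called higher features was 1.09, whereas the median over all features tested was -0.003. Changes past 2-fold were reached by 31 called features and changes past 4-fold by 6, with 3 features that were not well above background on any WT_CTR array counted at their bound or, with none, left out. In each of the 60, the 3 transgenic arrays lay wholly above or wholly below the 4 WT_CTR arrays, a separation that 4.28% of all features showed upward and 4.45% downward. The fitted count depended on the arrays used. It was 30 when the 7 arrays were fitted alone (18 higher and 12 lower, with 18 of the 60 kept), 8 with array row as a block, and between 21 (without APP-PS1_CTR 3) and 33 (without WT_CTR 4) when 1 array was left out. The 8 features called with array row as a block were all among the 60, namely Cst7, Prnp, Wdfy1, Ccl4, Itgax, Slamf9 and the probes A_51_P246653 and A_55_P2027761. That last probe was not well above background on any of the 7 arrays and was kept only through arrays of other groups. It was called in 2 of the 7 leave-one-out fits. The other 52 lost their calls with that block, although each of the 60 kept the sign of its change. Of the 16 features called in all 7 leave-one-out fits, 7 were called with the block. A further 6 of the 60 were called in 5 or 6 of the leave-one-out fits, 25 in 1 to 4 and 13 in none.

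**Figure D1:**
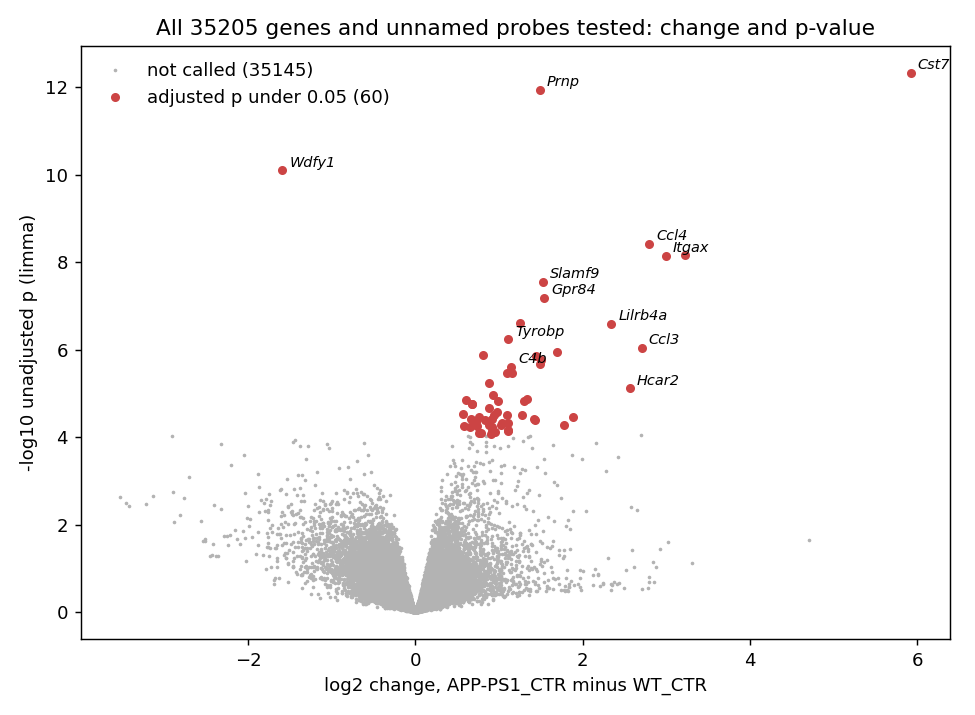
Change and p-value of every feature tested. The horizontal axis is the log2 change, APP-PS1_CTR minus WT_CTR, and the vertical axis is the -log10 of the unadjusted limma p. Red points are the 60 called features, of which 59 lie to the right of 0 and Wdfy1 alone to the left.

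The sequences upstream of some called genes were read because many called genes are known from myeloid cells, in which the ETS factor PU.1 binds promoters. RefSeq promoter windows (GRCm38.p6) of 300 bases, from 250 before to 50 after each annotated start, were found for 39 of the 50 called higher genes with a symbol, 43 windows in all. The PU.1-type ETS letters AGGAAGT, searched on both strands, stood in 18 of these 43 windows (41.9%), which belong to 17 genes. The same letters stood in 9.35% of all 32851 windows and in 8.96% of the 22054 windows of genes with a symbol that were tested. The 17 genes were Bcl2a1c, Bcl2a1d, Ccl6, Cd72, Cst7, Fcgr1, Fcrls, Gfap, Gpr84, Il4i1, Pilra, Ptpn6, Ptprc, Pycard, Samsn1, Slamf9 and Wdfy4, of which the first 2 are close copies of each other. The AP-1 letters TGACTCA stood in 3 windows (6.98%, against 5.20% of all windows). The interferon-stimulated response element stood in 1 (2.33%, against 3.44%), and the E-box CACGTG, which the lysosomal regulator TFEB binds, in 2 (4.65%, against 7.15%). These motifs do not overlap each other in letters, and a match is only a description of the window.

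The 150 bases before the start are printed for 5 called genes with small adjusted p-values that carry an ETS or AP-1 match, so that the match can be seen in its place. Capitals mark AGGAAGT or its reverse complement ACTTCCT, or, in Itgax, TGAGTCA, the reverse complement of the AP-1 letters. The windows lie at chr2:150570265-150570414 on the plus strand for Cst7, chr1:172475210-172475359 on the plus strand for Slamf9 and chr15:103310439-103310588 on the minus strand for Gpr84. Those of Ccl6 and Itgax lie at chr11:83593088-83593237 on the minus strand and chr7:128129400-128129549 on the plus strand. Each is written 5′ to 3′ on the strand of its gene.
Cst7: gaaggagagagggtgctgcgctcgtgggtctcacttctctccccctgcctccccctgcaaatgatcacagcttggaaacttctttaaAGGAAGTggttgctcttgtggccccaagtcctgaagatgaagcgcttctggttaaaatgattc
Slamf9: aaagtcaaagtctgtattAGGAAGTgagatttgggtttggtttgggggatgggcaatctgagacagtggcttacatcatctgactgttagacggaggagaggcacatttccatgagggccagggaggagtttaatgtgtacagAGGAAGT
Gpr84: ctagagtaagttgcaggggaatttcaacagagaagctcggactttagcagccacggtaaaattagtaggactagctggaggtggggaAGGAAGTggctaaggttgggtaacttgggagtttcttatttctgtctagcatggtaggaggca
Ccl6: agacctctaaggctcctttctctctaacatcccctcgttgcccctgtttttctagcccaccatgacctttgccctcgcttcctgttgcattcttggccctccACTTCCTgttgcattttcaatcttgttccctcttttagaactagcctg
Itgax: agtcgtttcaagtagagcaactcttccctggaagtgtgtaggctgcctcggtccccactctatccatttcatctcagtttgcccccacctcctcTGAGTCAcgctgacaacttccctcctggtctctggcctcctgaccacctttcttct
The match begins 63 bases before the start in both Cst7 and Gpr84, 132 and 7 bases before it in Slamf9, 48 in Ccl6 and 56 in Itgax.

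The receptor complex of plaque microglia rose as a pair. Trem2, the lipid-sensing receptor, stood at 2.01, 1.82, 1.81 and 1.97 on WT_CTR arrays 1 to 4 and at 2.96, 3.02 and 3.01 on APP-PS1_CTR arrays 1 to 3. Tyrobp, the adaptor that carries its signal, stood at 1.46, 1.58, 1.38 and 1.59 against 2.61, 2.59 and 2.63. In both genes the transgenic arrays lay close together, and no array of one group reached the other group. The change was 1.09 for Trem2 (SE 0.17, adjusted p = 0.00604) and 1.11 for Tyrobp (SE 0.15, adjusted p = 0.00184). Tyrobp was called whichever array was left out, and Trem2 lost its call when APP-PS1_CTR 3 was left out (0.0501). With array row as a block neither was called, with adjusted p-values of 0.248 for Tyrobp and 0.568 for Trem2, and 0 genes of TREM2-TYROBP signalling were called. Of 15 measured genes of TREM2-TYROBP signalling, 3 rose, 0 fell and 12 did not pass, with a median change of 0.49. The third called member was Ptpn6, the phosphatase SHP-1 that opposes such signals (0.88, SE 0.17, adjusted p = 0.0385, called in none of the 7 leave-one-out fits). Its other probes disagreed, at 0.84 and, for a dimmer one, at -0.28. In 11 of the 15 every transgenic array lay above every WT_CTR array, as in 4.28% of all features. The adaptor Hcst, a relative of Tyrobp, was at 0.85 with an adjusted p of 0.0515, the kinase Btk at 0.49 (0.428) and the linker Blnk at 0.55 (0.546). Ms4a6d, a membrane protein of the family near the human Alzheimer risk locus MS4A, rose by 0.68 (SE 0.12, adjusted p = 0.0212, called in 2 of the 7 leave-one-out fits). Together with Trem2 it made up the called members among 36 measured mouse orthologs of Alzheimer risk genes. The median of those 36 was 0.20, or 0.10 with array row as a block.

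Cst7 moved more than any other called gene. It encodes cystatin F, an inhibitor of lysosomal cysteine proteases. It read -4.80, -5.78, -5.93 and -4.77 in WT_CTR and 0.61, 0.41 and 0.78 in APP-PS1_CTR, so the WT_CTR arrays formed a higher pair (1 and 4) and a lower pair, and both pairs stood far below the transgenic arrays. The level rose 60.6-fold (5.92, SE 0.36, adjusted p = 1.63e-08). Itgax, the alpha chain of the integrin CD11c, read -4.62, -5.08, -4.77 and -4.53 against -1.79, -1.85 and -1.62, and it rose 7.97-fold (3.00, SE 0.31, adjusted p = 4.19e-05). Of 32 measured plaque-associated microglial genes, 10 rose, 0 fell and 22 did not pass, with a median change of 0.74. With array row as a block 3 were called and the median was 0.43. In 17 of the 32 the transgenic arrays lay wholly above WT_CTR, as in 4.28% of all features. Besides Cst7, Itgax and the chemokines below, the called members were the growth factor Igf1 (0.77), the late endosomal glycoprotein Cd68 (0.93), the inhibitory receptor Lilrb4a (2.34), the surface glycopeptide Cd52 (1.44) and the proton-sensing receptor Gpr65 (1.78). Lilrb4a read -3.45, -3.96, -2.77 and -3.83 against -1.24, -1.20 and -1.05, so the spread between WT_CTR arrays was wide but stayed below the transgenic arrays. Igf1 and Cd52 were called in none of the leave-one-out fits, Gpr65 in 1 and Cd68 in 3, whereas Cst7, Itgax and Lilrb4a were called in all 7. Apoe, the lipid carrier, read 7.26, 6.81, 6.73 and 7.14 against 7.04, 7.04 and 6.97. Its groups overlapped and its change was 0.03 (adjusted p = 0.968), with the other probe at -0.05.

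A probe without a symbol in the reference table, A_51_P246653, moved like these genes. It read -3.38, -3.66, -3.33 and -3.40 in WT_CTR and -0.33, -0.19 and -0.13 in APP-PS1_CTR (3.23, SE 0.34, adjusted p = 4.19e-05). A_55_P2088145, also without a symbol, rose by 1.25 (SE 0.16, adjusted p = 0.000893). Both were called in all 7 leave-one-out fits.

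**Figure D2:**
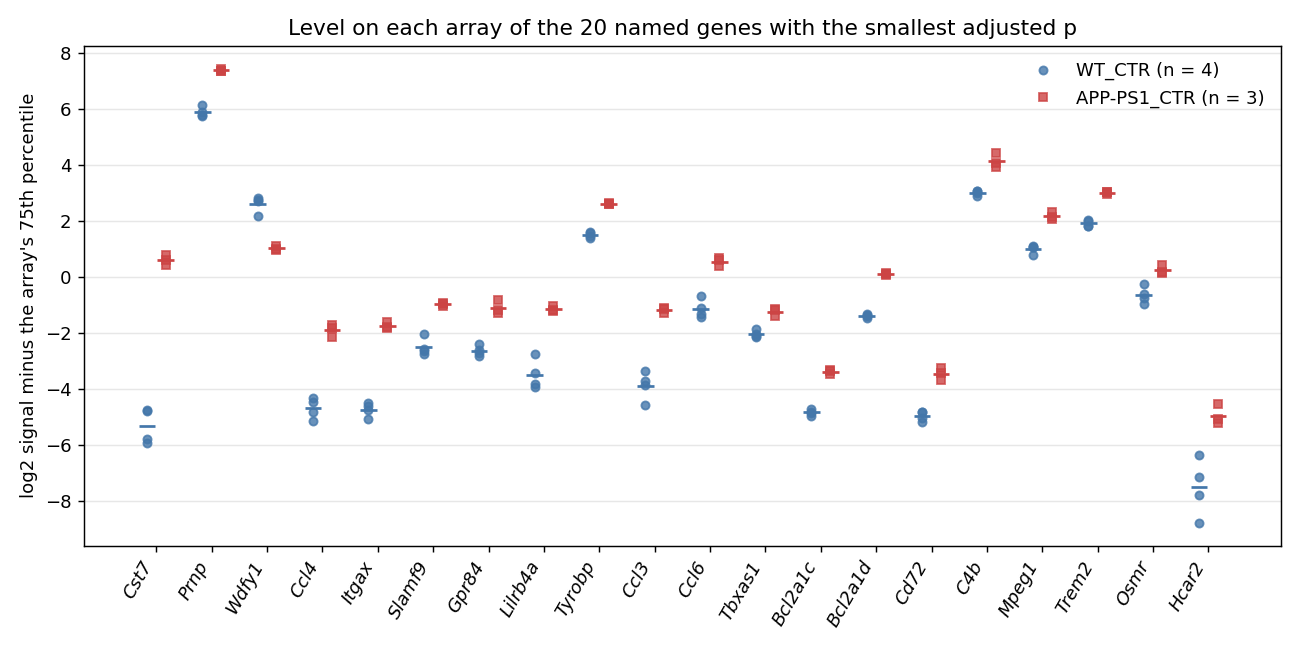
Levels on each array of the 20 called genes with a symbol that had the smallest adjusted p. The vertical axis is log2 signal minus the array's 75th percentile; blue circles are the 4 WT_CTR arrays, red squares the 3 APP-PS1_CTR arrays, and bars the group means. Cst7 shows the widest gap, and Wdfy1 is the gene in which the transgenic arrays lie below.

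Chemokines were called in a narrow set. Ccl4 and Ccl3, the macrophage inflammatory proteins that attract leukocytes, read -4.85, -5.17, -4.47 and -4.33 against -2.17, -1.72 and -1.84 for Ccl4, and -3.86, -4.59, -3.74 and -3.37 against -1.13, -1.29 and -1.14 for Ccl3. Both groups stood clear of each other in each gene. Ccl4 rose 6.95-fold (2.80, SE 0.28, adjusted p = 3.34e-05) and Ccl3 6.52-fold (2.7, SE 0.39, adjusted p = 0.00261). Ccl6, a rodent CC chemokine, rose 3.24-fold (1.69, SE 0.25, adjusted p = 0.00307), from -0.69, -1.45, -1.35 and -1.12 to 0.59, 0.37 and 0.65. These were the 3 called of 20 measured chemokines, with 0 lower and a median of 0.42, which was 0.24 without APP-PS1_CTR 2 and 0.21 with array row as a block. Each of the 3 was called in all 7 leave-one-out fits, but with the block Ccl3 (adjusted p = 0.301) and Ccl6 (0.49) were not called. Ccl12, a monocyte attractant, was at 1.54 (adjusted p = 0.112) and Cxcl10, an interferon-induced chemokine, at 1.38 (0.667), where APP-PS1_CTR 1 at -2.15 lay next to WT_CTR 1 at -2.26. Cxcl13 was not well above background on any of the 7 arrays. Of 14 measured chemokine receptors 0 were called, with 3 higher and 1 lower at an unadjusted p under 0.05 (2.93% of all features were higher and 3.55% lower by that rule) and a median of 0.13, or -0.07 with array row as a block. The fractalkine receptor Cx3cr1 was at 0.30 (adjusted p = 0.733).

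Receptors that restrain or prime myeloid cells made up a further part of the called set. Of 34 measured lectins and other immune receptors, 6 rose, 0 fell and 28 did not pass, with a median of 0.40. Slamf9, a SLAM family receptor, read -2.06, -2.77, -2.66 and -2.59 against -0.97, -1.05 and -0.95 (1.53, SE 0.18, adjusted p = 0.000141). Gpr84, the receptor for medium-chain fatty acids, read -2.41, -2.71, -2.85 and -2.64 against -1.19, -1.31 and -0.84 (1.54, SE 0.19, adjusted p = 0.000282). The other called members were Lilrb4a and Gpr65, the SLAM ligand Cd48 (0.94, adjusted p = 0.032) and the inhibitory receptor Pilra (0.92, 0.0464). Cd48 was called in 2 of the 7 leave-one-out fits and Pilra in 1. Outside this list, Cd72, a lectin-like inhibitory receptor, rose by 1.5 (SE 0.23, adjusted p = 0.00438), and lost its call when APP-PS1_CTR 3 was left out (0.0512). Il1rl1, the receptor for interleukin 33, rose by 1.43 (adjusted p = 0.0334, called in 1 of the 7 leave-one-out fits). Hcar2, the receptor for nicotinic acid and the ketone body beta-hydroxybutyrate, was well above background on all 3 transgenic arrays (-5.22, -5.10 and -4.56) and on 0 of the 4 WT_CTR arrays. It was at least 2.45-fold higher in APP-PS1_CTR (adjusted p = 0.0121). That bound sets the transgenic mean against the lowest signal well above background on each WT_CTR array, or the probe's own signal where this was brighter.

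Fc receptors bind antibody-coated particles. Of 7 measured members, 3 rose, 0 fell and 4 did not pass, with a median of 0.71. The inhibitory receptor Fcgr2b read -3.36, -3.16, -3.14 and -3.44 against -2.28, -1.88 and -1.75 (1.30, SE 0.23, adjusted p = 0.0195). The high-affinity receptor Fcgr1 rose by 0.76 (adjusted p = 0.047, called in none of the leave-one-out fits), and the Fc receptor-like gene Fcrls by 0.71 (0.0359, called in 1 of them). Fcgr3 at 0.64 had an adjusted p of 0.0701, and the common signalling chain Fcer1g, at 0.47, overlapped between the groups (0.766). Fcgr2b lost its call in 4 of the leave-one-out fits, those without replicate 2 or 3 of APP-PS1_CTR and without replicate 1 or 4 of WT_CTR, where the adjusted p reached 0.16.

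Complement genes had 1 called member of 20, with a median of 0.42, or 0.14 and 0 called with array row as a block. C4b, a component of the classical pathway, read 3.06, 3.05, 2.89 and 2.98 against 3.92, 4.43 and 4.06. The groups stood well apart, with APP-PS1_CTR 2 the highest array. C4b rose 2.21-fold (1.14, SE 0.18, adjusted p = 0.00473), and it lost its call when APP-PS1_CTR 2 was left out (0.0609). Its probe may also read the close copy C4a. The anaphylatoxin receptor C5ar1 was at 1.02 (0.0701), the integrin chain Itgb2 of complement receptor 3 at 0.74 (0.0816) and the recognition subunit C1qa at 0.61 (0.301). In 7 of the 20 the transgenic arrays lay wholly above WT_CTR, as in 4.28% of all features.

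Antigen presentation and the interferon response held no called gene. Of 23 measured genes of the major histocompatibility complex and antigen presentation, 0 were called in limma. The median was 0.39, or 0.23 with array row as a block. At an unadjusted p under 0.05, 5 were higher and 1 lower, against 2.93% and 3.55% of all features. The protease Ctss, which trims the invariant chain, read 4.41, 4.37, 4.20 and 4.41 against 4.92, 5.10 and 5.03 (0.67, adjusted p = 0.164). Of 26 measured interferon-response genes, 0 were called and 4 were higher at an unadjusted p under 0.05, although 25 had a change above 0 (49.4% of all features did) and the median was 0.40. That median ranged from 0.12, without APP-PS1_CTR 2, to 0.59 when 1 array was left out, and was 0.23 with array row as a block. Oas1a, an antiviral enzyme, read -2.17, -2.13, -1.95 and -2.27 against -1.91, -0.60 and -1.62, so APP-PS1_CTR 2 stood apart and APP-PS1_CTR 1 lay close to WT_CTR. Ifi204, a nucleic acid sensor, showed the same high array, with -2.35, -0.80 and -1.88 in APP-PS1_CTR against -2.20, -2.81, -2.20 and -2.68.

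Some genes of phagocytes and their oxidative burst were called. Of 9 measured genes of the NADPH oxidase and lysozyme, 2 rose, 0 fell and 7 did not pass, with a median of 0.60. In 8 of the 9 genes the transgenic arrays lay wholly above WT_CTR, as in 4.28% of all features. Among them was Hvcn1, the proton channel that sustains the oxidase, which rose by 0.84 (adjusted p = 0.0334, called in 2 of the 7 leave-one-out fits). Lyz1 was at 1.31 (0.163) and Lyz2 at 0.98 (0.402), and these lysozymes are close copies. Mpeg1, Slc11a1, Tbxas1 and Bcl2a1c, described next, are called genes outside that list. Mpeg1, the pore-forming perforin-2 of macrophages, read 1.08, 1.09, 0.78 and 1.07 against 2.07, 2.29 and 2.12 (1.16, SE 0.18, adjusted p = 0.00604). Slc11a1, a metal transporter of the phagosome, rose by 0.99 (SE 0.17, adjusted p = 0.0195, called in 3 of the 7 leave-one-out fits). Tbxas1, thromboxane A synthase, rose by 0.82 (SE 0.12, adjusted p = 0.00318) and was called in all 7 leave-one-out fits. Bcl2a1c and Bcl2a1d, copies of a survival factor that their probes may not tell apart, rose by 1.45 (SE 0.21) and 1.5 (SE 0.23). Bcl2a1d read -1.49, -1.39, -1.35 and -1.40 against 0.05, 0.14 and 0.11, with little spread in either group. It was the called member of 13 measured apoptosis regulators, whose median was -0.01.

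The lysosome as a whole moved little. Cd68 was the called member of 37 measured lysosomal genes, with a median of 0.13, and it read 1.17, 0.84, 0.69 and 1.03 against 1.73, 1.81 and 2.06 (0.93, SE 0.16, adjusted p = 0.0168). Cst7 was the called member of 17 cathepsins and cystatins, whose median was 0.27. Ctsz at 0.70 (adjusted p = 0.223), Ctsl at 0.61 (0.416) and Ctsa at 0.47 (0.29), all lysosomal proteases, had groups that did not overlap. In 6 of the 17 the transgenic arrays lay wholly above WT_CTR, as in 4.28% of all features. Lipid and lipoprotein genes (24 measured, median 0.05) and cholesterol synthesis genes (22 measured, median -0.04) held 0 called members, with 3 and 0 higher at an unadjusted p under 0.05 and 0 lower in either.

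Markers of microglial identity lay slightly above WT_CTR. Of 20 measured homeostatic microglial genes, Fcrls rose and 19 did not pass, with a median of 0.30. In 9 of the 20 the transgenic arrays lay wholly above WT_CTR, as in 4.28% of all features. The purinergic receptor P2ry12 read 0.08, 0.34, 0.09 and -0.02 against 0.36, 0.21 and 0.28, and Tmem119 read 1.23, 0.82, 0.68 and 0.99 against 1.0, 0.86 and 0.99. Both overlapped between the groups, with changes of 0.16 (adjusted p = 0.842) and 0.02 (0.983). Aif1, the calcium-binding protein Iba1, was at 0.58 (0.404). Among 18 measured growth factors, receptors and lineage factors, 2 rose, 0 fell and 16 did not pass, with a median of 0.29, or 0.16 with array row as a block. These were Irf8 (0.68, SE 0.12, adjusted p = 0.0212) and Runx1 (0.67, SE 0.13, adjusted p = 0.0334), both transcription factors of the myeloid lineage. Ptprc, the pan-leukocyte phosphatase CD45, rose by 0.89 (SE 0.16, adjusted p = 0.0249). Of the 7 leave-one-out fits, Irf8 was called in 3, Ptprc in 1 and Runx1 in none. In these whole-tissue samples, more cells of a type and more RNA per cell cannot be told apart. Lists of border macrophages (10 measured) and of monocytes, neutrophils and lymphocytes (13 measured) held 0 called members (0 at an unadjusted p under 0.05 in limma) and had medians of -0.08 and -0.20. Their summed linear levels ran from 2.10 to 3.30 in WT_CTR and 1.71 to 3.85 in APP-PS1_CTR for the former, and from 13.5 to 15.8 and 13.2 to 13.7 for the latter.

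Of the cytokine, inflammasome and toll-like receptor genes, 2 of 30 measured rose, 0 fell and 28 did not pass, with a median of 0.12. Pycard, the inflammasome adaptor ASC, read -0.82, -0.97, -0.97 and -0.95 against -0.48, -0.29 and -0.28 (0.58, SE 0.11, adjusted p = 0.0386). Cd14, the endotoxin co-receptor, rose by 0.92 (SE 0.18, adjusted p = 0.0386). Neither was called in any of the leave-one-out fits. Ly86, the partner of a toll-like receptor relative, read 2.08, 2.04, 2.04 and 2.11 against 2.73, 2.81 and 3.18, and its adjusted p was 0.063.

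**Figure D3:**
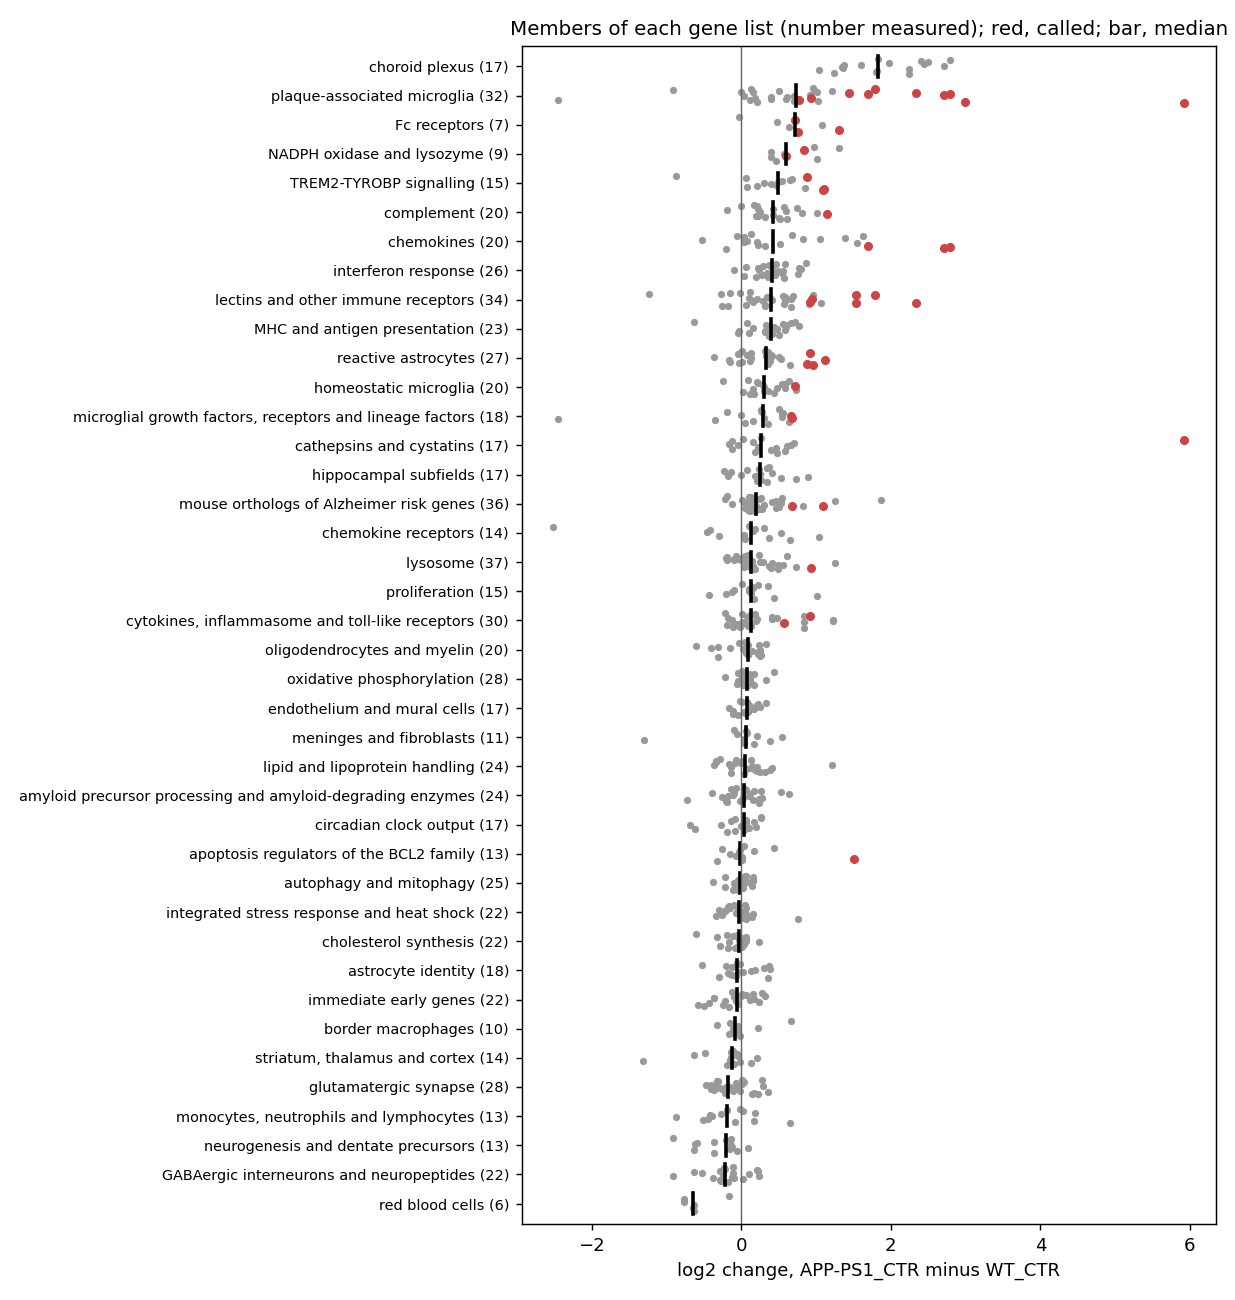
Change of every measured member of 40 gene lists, with the number measured in brackets. The horizontal axis is the log2 change, APP-PS1_CTR minus WT_CTR; red points are called genes, grey points are not, and black bars are list medians. The plaque-associated microglial list holds 10 red points and the reactive astrocyte list 4, while the choroid plexus list has a median of 1.82 (-0.0008 with array row as a block) with 0 called.

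Astrocyte genes were read in lists of reactive and of identity genes. Of 27 measured reactive astrocyte genes, 4 rose, 0 fell and 23 did not pass, with a median of 0.32. Of 18 astrocyte identity genes 0 were called, with a median of -0.05. At an unadjusted p under 0.05 in limma, 2 of the 18 were higher and 2 lower, against 2.93% and 3.55% of all features. Gfap read 3.08, 2.90, 2.82 and 3.15 against 3.87, 3.94 and 4.02, with all transgenic arrays above all WT_CTR arrays. It rose 1.94-fold (0.96, SE 0.19, adjusted p = 0.047), a call near the threshold that was lost whichever array was left out. Its other probe was at 0.69. Osmr, the oncostatin M receptor, rose by 0.88 (SE 0.14, adjusted p = 0.00973), and it lost its call when APP-PS1_CTR 2 was left out (0.11). The asparaginase Aspg rose by 1.11 (adjusted p = 0.0463, called in 1 of the 7 leave-one-out fits). Cd14 was the other called member and is also a myeloid gene. Vim, the filament vimentin, was at 0.65 (0.512). Serpina3n, a secreted protease inhibitor often used as a marker of reactive astrocytes, read 0.07, -0.72, -0.79 and 0.07 against -0.03, -0.04 and 0.12, so the groups overlapped (0.36, adjusted p = 0.839). With array row as a block the median was 0.05 for the reactive list, with 0 called, and -0.09 for the identity list. The difference between these lists was not tested.

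The transgene check gave a call by a single probe. Prnp, the prion protein gene whose promoter drives the transgenes, read 5.76, 6.14, 5.74 and 5.89 against 7.43, 7.34 and 7.35 by its brighter probe, 2.81-fold higher (1.49, SE 0.10, adjusted p = 1.99e-08). By its other probe it read 1.08, 1.66, 1.47 and 1.51 against 1.46, 1.03 and 1.51, with overlapping groups and a change of -0.10. App read 6.22, 5.88, 6.09 and 6.14 against 6.41, 6.27 and 6.30. The groups did not overlap, but the change of 0.24 did not pass (adjusted p = 0.766), and a dimmer probe gave -0.12. Whether either App probe matches the transgene was not tested. Over 24 measured genes of amyloid precursor processing and degradation, 0 were called and the median was 0.04. At an unadjusted p under 0.05 in limma, 2 were higher and 1 lower, against 2.93% and 3.55% of all features. The amyloid-degrading protease Ide was at 0.63 (adjusted p = 0.277), with groups that did not overlap.

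Wdfy1 was the called gene that fell. It encodes an endosomal adaptor of toll-like receptors. It read 2.18, 2.81, 2.7 and 2.73 in WT_CTR and 1.08, 0.96 and 1.0 in APP-PS1_CTR, a change of -1.59 (SE 0.13, adjusted p = 9.29e-07) that was called in all 7 leave-one-out fits and with array row as a block. A second probe read 0.78, 1.66, 1.60 and 1.46 against 0.02, 0.17 and 0.03 (-1.3), and the last, dimmer probe showed overlapping groups (0.02). Levels of Wdfy1 were 0.82 ± 0.10 (SD, n = 4), 0.85 ± 0.10 (n = 3) and 0.80 ± 0.14 (n = 5) in the other 3 transgenic groups and 2.67 ± 0.15 (n = 5) in WT_WASHOUT, so every transgenic group mean lay near that of APP-PS1_CTR.

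The genes next to Wdfy1 in order of p among those lower did not pass. Vgll3, a transcriptional cofactor, read -0.82, -0.16, -0.08 and 0.12 against -3.18, -3.02 and -2.61 (-2.7, adjusted p = 0.198). Plagl1, an imprinted zinc finger gene, read 3.82, 3.23, 3.04 and 3.34 against 1.11, 1.49 and 1.87 (-1.87, adjusted p = 0.281), while its other probe was at 0.004. Atp2b4, a plasma membrane calcium pump, was at -1.20 (0.265) and -1.13 by its other probe, and the GABA receptor subunit Gabrg3 at -0.62 (0.178). In these 4 genes no transgenic array reached the WT_CTR range. With the 7 arrays fitted alone the adjusted p was 0.0278 for Vgll3, 0.066 for Plagl1, 0.066 for Atp2b4 and 0.254 for Gabrg3. After washout the same contrast of genotypes gave changes in the other direction for these 4 genes. They were 1.37 for Vgll3 (adjusted p = 0.132), 0.64 for Plagl1 (0.351), 0.77 for Atp2b4 (0.067) and 0.48 for Gabrg3 (0.0195). Of these only Gabrg3 was called, and slide and genotype cannot be told apart in that contrast. Array rows were nearly reversed there, with APP-PS1_WASHOUT in row 1 and WT_WASHOUT, except replicate 1, in row 2. With array row as a block the end-of-treatment changes were -1.65 for Vgll3, -1.07 for Plagl1, -0.91 for Atp2b4 and -0.50 for Gabrg3. The part of array row in the change of direction was not tested.

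Neuronal lists held no called gene. Of 28 measured genes of the glutamatergic synapse, 0 were called in limma and the median was -0.17. At an unadjusted p under 0.05, 0 were higher and 2 lower, against 2.93% and 3.55% of all features. In 1 of the 28 the transgenic arrays lay wholly above WT_CTR, near the 4.28% of all features that did. The vesicle protein Syn2 was at -0.41 (adjusted p = 0.654) and the scaffold Shank1 at -0.41 (0.749), and both overlapped. Of 22 measured genes of GABAergic interneurons and neuropeptides, 0 were called, with 0 higher and 1 lower at an unadjusted p under 0.05 and a median of -0.22. Somatostatin (Sst) read 6.12, 5.98, 5.83 and 6.12 against 6.51, 5.65 and 5.94 (0.02, adjusted p = 0.987), with groups that overlapped. With array row as a block the medians of these lists were 0.02 and 0.04, on the other side of 0. Immediate early genes (22 measured, median -0.06), clock genes (17, 0.03), hippocampal subfield markers (17, 0.25) and neurogenesis genes (13, -0.20) also had 0 called, as did proliferation genes (15, 0.13). In the neurogenesis list 1 of 13 members was above 0 (49.4% of all features were), and 2 lay wholly below WT_CTR, as did 4.45% of all features. Its summed level, which its brightest members weigh most, ran from 29.4 to 42.6 in WT_CTR and from 24.03 to 26.8 in APP-PS1_CTR. The median level of its members overlapped, from -0.36 to -0.08 in WT_CTR and from -0.24 to -0.12 in APP-PS1_CTR. Oligodendrocyte and myelin genes (20 measured, median 0.09), autophagy and mitophagy genes (25, -0.01), oxidative phosphorylation genes (28, 0.07) and stress response genes (22, -0.03) had 0 called as well. Among these 9 lists the members at an unadjusted p under 0.05 were 2 oxidative phosphorylation genes that were higher, and 1 immediate early gene, 1 clock gene and 2 oligodendrocyte genes that were lower.

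Markers of tissue at the edge of the hippocampus varied between arrays. All 17 measured choroid plexus genes were above 0, with a median change of 1.82 (1.06 to 2.84 when 1 array was left out). With array row as a block, which rests on few arrays, the median was -0.0008. Of the 17, 0 were called, 0 had an unadjusted p under 0.05 in limma and 0 had groups that did not overlap. The thyroid hormone carrier Ttr, the main product of this tissue, read 7.29, 1.73, 6.30 and 3.67 in WT_CTR and 6.85, 7.09 and 7.02 in APP-PS1_CTR. The summed linear level of the list was 412, 28.0, 173 and 45.0 on WT_CTR arrays 1 to 4 and 203, 330 and 342 on APP-PS1_CTR arrays 1 to 3. Among the 59 called higher features, WT_CTR 1, the highest of the 7 arrays in this sum, was the highest WT_CTR array in 18 and the lowest in 13. WT_CTR 2, with the lowest sum, was the highest in 10 and the lowest in 21. WT_CTR 1 lay above the other WT_CTR arrays in Ccl6, Slamf9, Gpr84, Cd68 and Trem2, for example, and between them in Cst7, Itgax and Tyrobp. Without WT_CTR 1, 30 of the 60 were still called, against 20 to 31 without another array. Red blood cell genes (6 measured) summed to between 17.9 and 122 in WT_CTR and 18.6 and 149 in APP-PS1_CTR, with 0 called and a median of -0.64. Meninges and fibroblasts (11 measured, median 0.06), endothelium (17, 0.07) and the list of striatum, thalamus and cortex (14, -0.12) had 0 called. Of these last 4 lists, 2 endothelial genes were higher at an unadjusted p under 0.05 and 0 were lower. The part of these tissues in the called changes was not tested beyond these values.

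**Figure D4:**
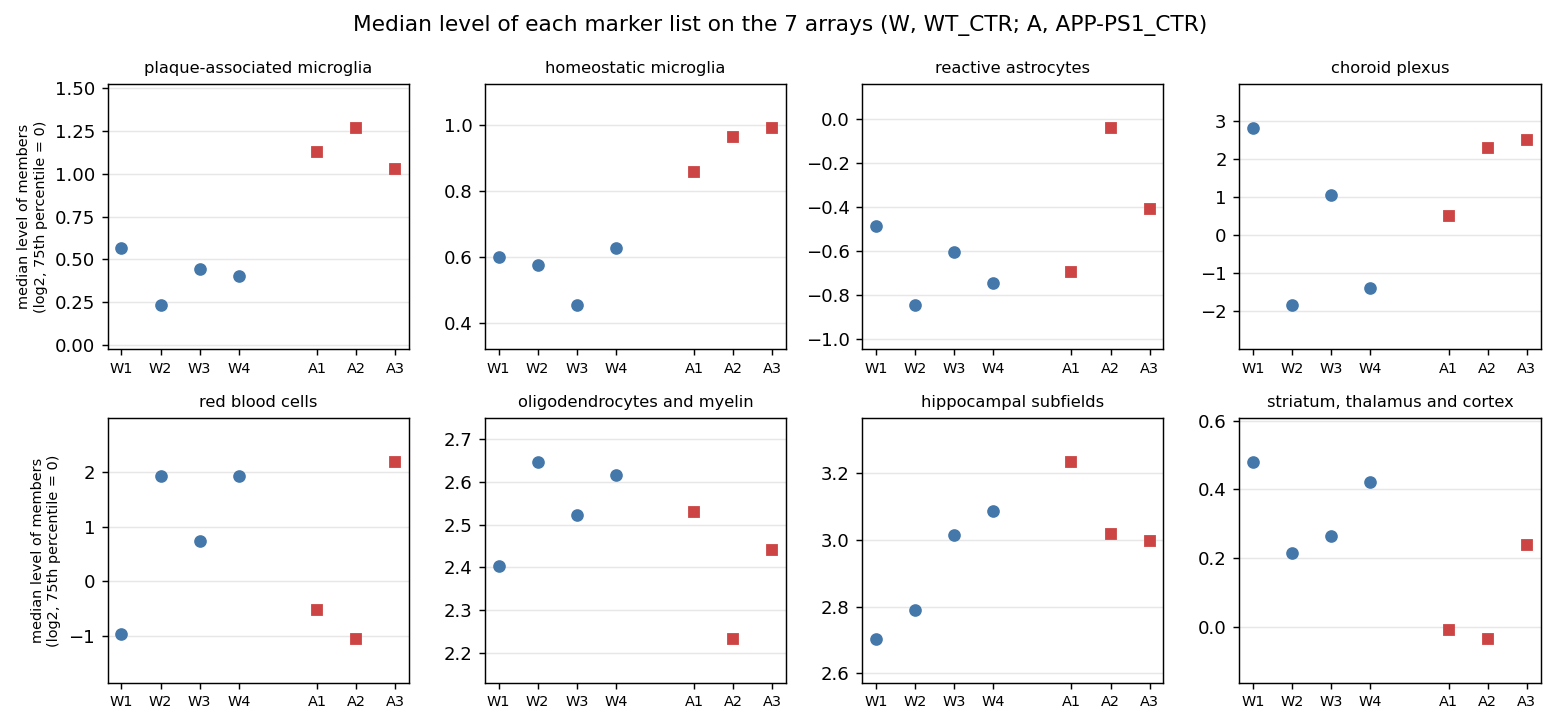
Median level of the members of 8 marker lists on each of the 7 arrays. The vertical axis of each panel is the log2 level with the 75th percentile of the array at 0; blue circles are WT_CTR 1 to 4 (W) and red squares APP-PS1_CTR 1 to 3 (A), and each panel has its own scale. Both microglial lists separate the groups, whereas choroid plexus and red blood cell lists differ between arrays of the same group.

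The same genotypes were compared once more in the washout groups, which were 1 month older and shared no array with these. Both contrasts used the same estimate of the spread, from all 24 arrays. There 9675 features were called, with 6958 higher (19.8%) and 2717 lower (7.72%). The groups lay on different slides, so slide and genotype cannot be told apart in that contrast. Their array rows were nearly the reverse of those at the end of treatment. APP-PS1_WASHOUT lay in row 1 and WT_WASHOUT, except replicate 1, in row 2. Of the 60 features called at the end of treatment, 52 were called the same way after washout, which is 86.7% of the 60 and 0.537% of the 9675, and all 60 kept their sign, in a contrast where 57.2% of all features lay above 0. The median change of the 59 higher features was 1.12 after washout, against 0.07 for all features tested. Cst7 was at 5.87, Itgax at 3.18, Ccl4 at 2.72, Ccl3 at 3.23, Prnp at 1.40 and Wdfy1 at -1.81. Among the called genes with a symbol, those not called after washout were Bcl2a1c, Osmr, Ms4a6d, Igf1, Plek, Fgfbp3 and Gm14625. The test of the difference between the stages, which called 14.2% of all features, called 5 of the 60, and among the genes with a symbol these were Bcl2a1c (smaller after washout) and Gm31740, Cd48 and Mettl7a2 (larger).

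**Figure D5:**
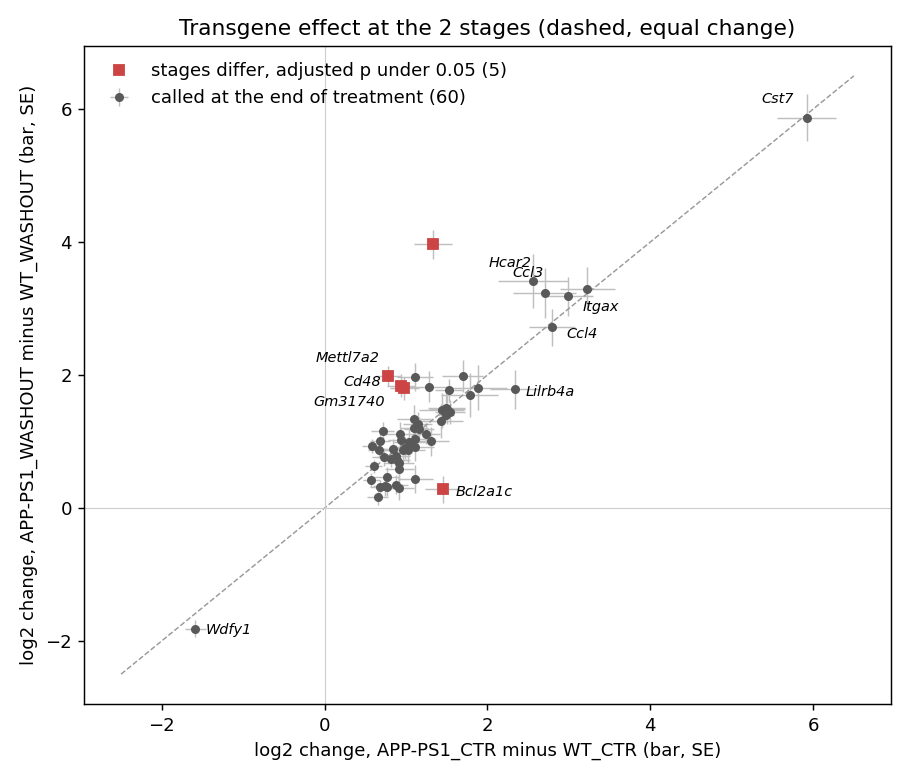
Transgene effect on the 60 called features at both stages. The horizontal axis is the log2 change at the end of treatment and the vertical axis that after washout, each with its SE; the dashed line marks equal change and red squares the 5 features for which the stages differed. The points of Cst7, Itgax, Ccl4 and Ccl3 lie near the line, and Bcl2a1c lies below it.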

How the data were processed

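Hippocampal RNA was measured on 24 Agilent 1-colour arrays of 62976 spots. Per the file headers, the authors extracted the deposited intensity of each spot with Feature Extraction version 12.0.3.1, which subtracts the background within an array. The deposited series matrix holds a score, found by comparison with the scanner files to be each array's log signal standardized over its spots, so its log base and scale stay unknown, and it was used only as an alternative. No source used here gives the authors' test.

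Values flagged as outliers by the software were left out (1056 among the probes kept), repeated spots were averaged, log2 was taken and each array's 75th percentile subtracted. Probes well above background on at least 3 arrays, with at least 2 values in every group, were kept (43914 of 56605). RefSeq accessions gave symbols, 23611 probes had none, and each gene was read from the brightest of its kept probes, by mean signal. One limma model of 6 group means over all 24 arrays was fitted (R 4.3.3, limma 3.58.1; tables and figures with pandas 2.3.3, matplotlib 3.10.9 and numpy 2.4.6 under Python 3.11.15), and p-values were adjusted over 35205 features. The steps were tested on simulated data. Alternatives were other background corrections, normalizations, filters, blocks and weights, and leaving out each array. Normexp used the median signal because the mean signal was not used here; this alternative and the fit without the third slide were chosen after the data were seen.

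The comparison, the 42 gene lists and the motifs were chosen with earlier results of these data known, and no list was tested as a set. Genes named are the called genes, up to 4 further members of each list by unadjusted p, the 12 lower genes with the smallest p, a short list named whatever its values, and at most 2 probes without a symbol in each direction. A few genes that this rule names are not reported here.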

Additional observations from a re-analysis of the deposited data

Results flagged for a closer look

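In 193 results checked for a WT_CTR array far from the other 3, 4 had one, and chance alone flags about 1 in 20 such groups. WT_CTR 3 was low for Mpeg1 (0.78, the others 1.07 to 1.09), for Selplg, the selectin ligand of microglia (1.25, the others 1.39 to 1.40), and for Usp43, a deubiquitinase dim on these arrays (-6.74). WT_CTR 1 was high for Pycard (-0.82, the others -0.97 to -0.95).

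The transgene effect differed between the stages, by the test of the difference in limma, for 15 of 151 named features, where 14.2% of all features tested did. Slide and genotype cannot be told apart in the washout contrast that enters this difference, and the array rows of the genotypes were nearly reversed between the stages. The difference, the effect after washout minus that at the end of treatment, was below 0 for 3 of them. It was -1.17 for Bcl2a1c, whose effect went from 1.45 to 0.28, and -0.80 for Ide, from 0.63 to -0.17. It was -2.55 for Ch25h, the cholesterol 25-hydroxylase, from 1.22 (adjusted p = 0.404) to -1.34 (0.00684), the other direction. The effect was larger after washout for Gm31740 (0.82), Cd48 (0.90), Mettl7a2 (1.20) and Gla, a lysosomal galactosidase (0.63), and for A_55_P2027761 (2.63), which was not well above background on any of the 7 arrays. The genes below WT_CTR without a call at the end of treatment had differences above 0, which were 1.83 for the costimulatory receptor Cd40, 1.11 for the nitric oxide synthase Nos1, 1.07 for the clock repressor Cry1 and 1.09 for Gabrg3. They were 4.07 for Vgll3, 1.97 for Atp2b4 and 2.51 for Plagl1. Gabrg3, Vgll3, Atp2b4 and Plagl1 were named for a small p among the lower genes at the end of treatment. That change is subtracted in the difference, so the choice of genes itself favours differences above 0.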

How the results depend on the processing

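The count of 60 called features was 48 with normexp, 55 with quantile normalization, 72 with median centring, 43 on the series matrix scores, 53 with a gene's probes averaged, 64 with a variance trend, 42 with slide as a block, 72 with a stricter filter and 50 without the third slide. It moved further in other fits: 31 without the filter on dim probes (46508 features tested), 30 for the 7 arrays or the first slide alone, which leave fewer arrays for the spread, 8 with array row as a block, 4 with slide and array row, and 172 with array weights (143 higher, 29 lower). Leaving out 1 array gave 21 to 33. The overlap with the washout calls was 52 and was 55 with slide as a random block, 46 with quantile normalization, 42 with normexp and 28 without the filter. The cause of these shifts was not tested unless stated. Replicate numbers did not pair the samples, since same-numbered arrays correlated in their deviations at -0.24 to -0.03; with the replicate block in the fit of 7 arrays 0 were called, 1754 had an unadjusted p under 0.05 and the smallest adjusted p was 0.145.

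Of the 60 called changes, 0 changed sign under the alternatives above that give them a value, which is 58 of the 60 under the stricter filter and all 60 under the others. Changes near 0 did. P2ry12 was -0.021 and Vim -0.0075 with slide and array row as blocks. Apoe was -0.104 with quantile normalization, -0.019 with array weights and -0.0090 with probes averaged. Sst was -0.0092 with normexp, -0.065 with quantile normalization and -0.058 with array weights. Leaving out 1 array gave -0.060 to 0.123 for Tmem119, -0.053 to 0.124 for Apoe and -0.217 to 0.212 for Sst, with Tmem119 at -9.62e-05 without APP-PS1_CTR 1. Of the 42 list medians, 11 moved by more than the SD between replicates of that median with array row as a block, and 0 to 9 did under the other alternatives. With that block 10 of the 42 list medians changed sign. The choroid plexus list went from 1.82 to -0.0008, chemokine receptors from 0.13 to -0.07, the glutamatergic synapse from -0.17 to 0.02 and GABAergic genes from -0.22 to 0.04. Others were oligodendrocytes and myelin (0.09 to -0.14), meninges and fibroblasts (0.06 to -0.19) and cholesterol synthesis (-0.04 to 0.08). With slide and array row as blocks the hippocampal subfields went from 0.25 to -0.01. Probes near background, such as those of Hcar2 in WT_CTR, give bounds only.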

Other observations

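Csf1, the growth factor of microglia, was singled out after its values were seen, because its probes disagree. Its brightest probe read 1.22, 1.13, 1.25 and 1.21 in WT_CTR and 1.58, 1.60 and -6.92 in APP-PS1_CTR, so the change of -2.45 (SE 1.19, adjusted p = 0.77) was set by APP-PS1_CTR 3. Its other 2 probes gave 0.89 and 0.83, with all transgenic arrays above all WT_CTR arrays in both.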
